A study of Mus musculus with 20 samples.

Results

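The mRNAs described here encode 8 RNA-binding or nuclear-body proteins, here called partners of the survival motor neuron protein (SMN): Hnrnpr, Syncrip, Tardbp, Fmr1, Elavl4, Khsrp, Igf2bp1 and Coil. They were taken as mRNA transport and translation proteins that bind SMN or that cause disease of motor neurons, with earlier results of these data known. They were found by gene symbol among the 45700 gene rows of the table, where they take 9 rows because Coil is listed under 2 identifiers. The mice were of the “Taiwanese” SMA model on a congenic FVB background, in which the murine Smn gene is null and a human SMN2 transgene is carried on 1 allele (Smn-/-; SMN2tg/0), and the controls were heterozygous littermates that carry the same transgene (Smn-/+; SMN2tg/0). Whole brains were taken on postnatal day 5 (P5, early-symptomatic, 2 libraries per genotype and fraction) and day 7 (P7, late-symptomatic, 3 libraries per genotype and fraction), so that the 20 libraries fall into 8 groups. Cytoplasmic lysates were run on sucrose gradients. RNA of all fractions pooled gave the total RNA, and RNA of the polysomal fractions alone gave the polysomal RNA. Each brain library mixes all cell types and not motor neurons alone. Levels are given in FPKM, fragments scaled to exon length and to the mapped fragments of the library, so that genes can be compared. The reads behind a value are unknown. No label says that replicates came from separate litters, and p-values measure only the spread between these libraries.

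In neurons, mRNAs travel along axons and dendrites in granules of RNA-binding proteins, held back from translation until they reach their place. SMN is best known for assembling the spliceosomal snRNPs in the cytoplasm and for its place in Cajal bodies of the nucleus, and it also binds proteins of these transport granules. Loss of SMN causes spinal muscular atrophy (SMA), and several of the partner genes are themselves linked to disease of the nervous system.

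None of the 7 partner mRNAs abundant enough to be tested passed the threshold between SMA and control brain, in either fraction or stage. Between P5 and P7 in control mice Elavl4 and Khsrp rose and Syncrip fell in polysomal RNA (3 of 7 called, beside 39.7% of all tested genes). In total RNA Elavl4 alone passed (1 of 7, beside 23.1%), a call that was lost without any 1 of the 5 control libraries. These shares are near those of all genes. In bulk brain, fewer cells of a type and less RNA per cell cannot be told apart. The markers were read for the labelled tissue: Snap25 lay between 182.15 and 417.05 FPKM and Rbfox3 between 14.61 and 35.48 FPKM over the 20 libraries, whereas the liver genes Alb and Apoa2 did not exceed 0.19 FPKM and 0.17 FPKM. Of 2 muscle genes, Ckm did not exceed 0.21 FPKM and Acta1 reached 6.78 FPKM, with group means of 3.72 to 5.73 FPKM outside the early control polysomal libraries, where it is listed at 0. Smn1 itself overlapped between genotypes in all 4 comparisons (P7 total RNA: 14.8 ± 1.68 FPKM in controls and 14 ± 3.02 FPKM in SMA, SD, n = 3 each). Its value is read over the whole gene and does not test the deletion. The early control polysomal libraries stood apart in that 42 genes with at least 5 FPKM in every other library were listed at 0 in both of them, against 2 or fewer genes in any other group. None of the 8 partner genes was among them.

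The 8 partners spanned a wide range of abundance. Averaged over the 20 libraries, Tardbp was at 120 FPKM, Hnrnpr at 91, Syncrip at 55.2, Elavl4 at 47.8, Fmr1 at 27.7, Khsrp at 16.5, Coil at 8.92 and Igf2bp1 at 0.301 FPKM. Most neighbours in this order kept it within every library. Tardbp lay above Hnrnpr, Hnrnpr above Syncrip, Elavl4 above Fmr1, Fmr1 above Khsrp and Coil above Igf2bp1 in 20 of 20 libraries, and Khsrp lay above Coil in 19. Syncrip and Elavl4 did not keep a fixed order. Syncrip was the higher of the pair in 8 of 8 early libraries and Elavl4 in 8 of 12 late libraries. Igf2bp1 fell below the mean of 1 FPKM required for testing, so that 7 of the 8 partners were tested among 15247 genes.

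**Figure D1:**
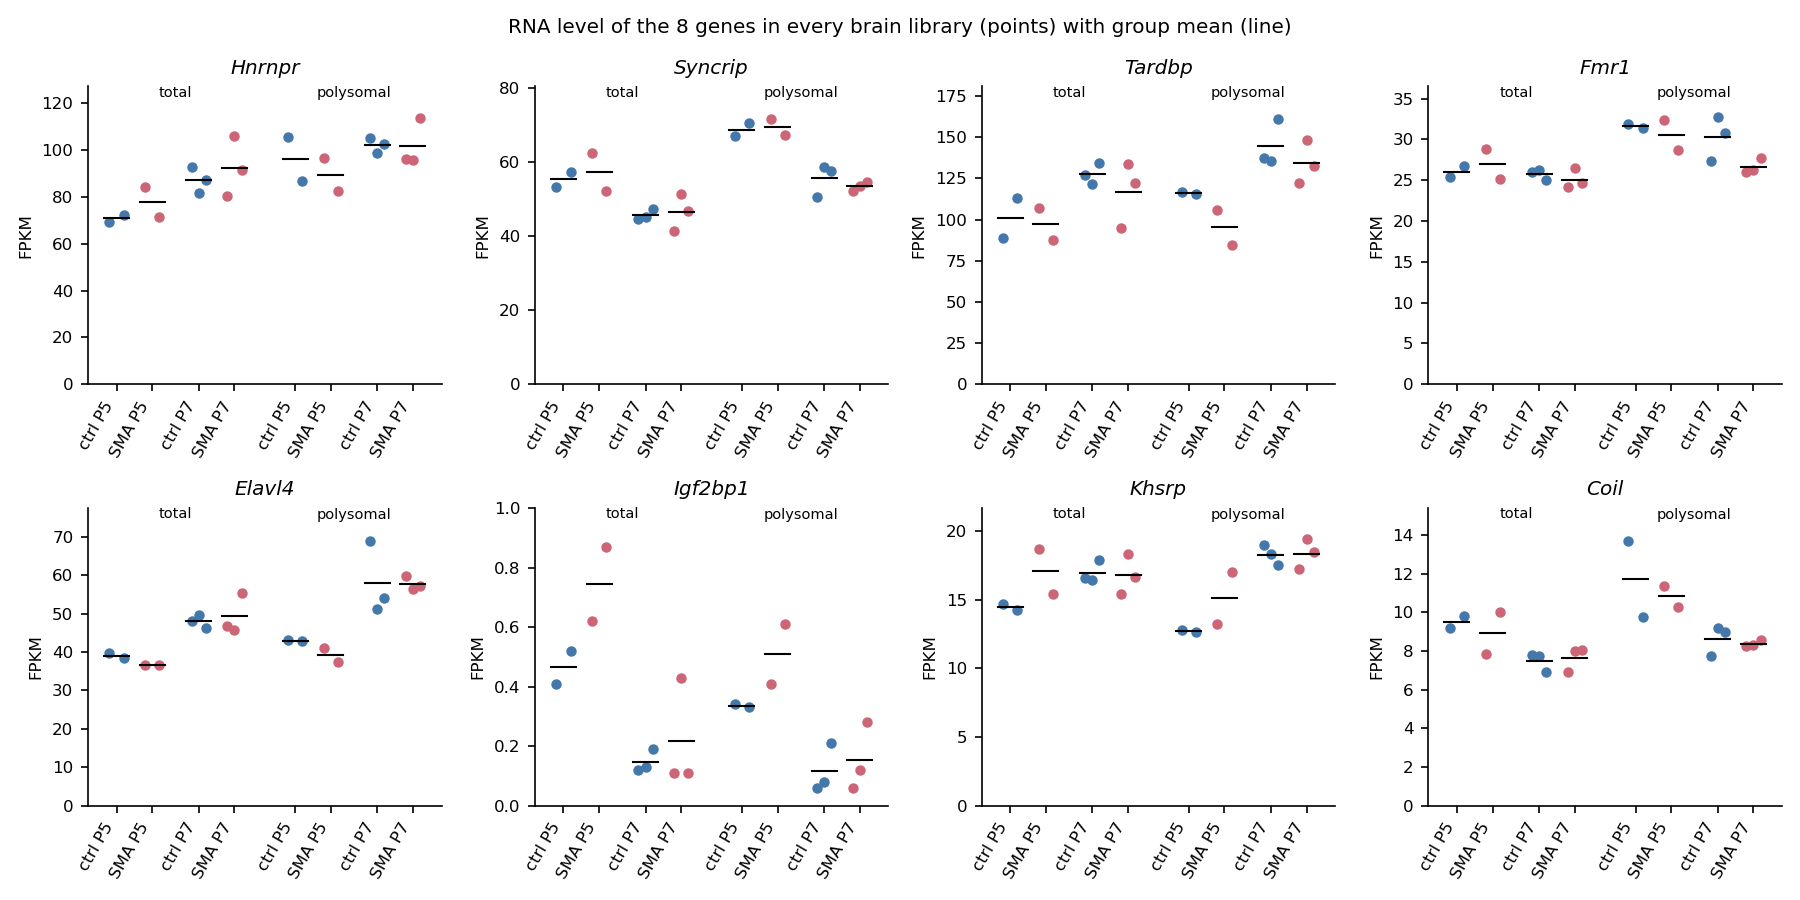
FPKM (vertical axes, each starting at 0) of the 8 partner genes in each library (points, blue for control and red for SMA) with the group mean (black line), for total RNA on the left and polysomal RNA on the right of each panel. The genotypes lie close together in most groups, whereas Elavl4 lies higher and Syncrip and Igf2bp1 lie lower at P7 than at P5.

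Hnrnpr encodes hnRNP R (ENSMUSG00000066037.12, GRCm38 chromosome 4, 136310942 to 136359447, plus strand), an hnRNP that binds SMN and carries β-actin mRNA in motor axons. Total RNA gave 69.16 and 72.51 FPKM in early controls, 84.15 and 71.6 in early SMA, 92.91, 81.68 and 87.13 in late controls and 80.3, 105.92 and 91.44 in late SMA mice. Polysomal RNA gave 105.61 and 86.63 FPKM, 96.54 and 82.61, 105.01, 98.69 and 102.52, and 96.1, 95.62 and 113.63 FPKM in the same order. The genotypes overlapped in all 4 comparisons, and the late control total libraries all lay above the early ones. The SMA effect on the log2(FPKM + 0.1) scale was between -0.1 and 0.13, with the widest 95% interval from -0.55 to 0.36 in early polysomal RNA. After removal of the trend with transcript length described below it was -0.26 in early total RNA (unadjusted p = 0.0254) and -0.51 in early polysomal RNA (unadjusted p = 0.0594). The rise from P5 to P7 in control total RNA was 0.30 (SE 0.12) with a limma adjusted p of 0.122, which missed the threshold.

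Syncrip (ENSMUSG00000032423.10, chromosome 9, 88447009 to 88482574, minus strand) encodes hnRNP Q, the closest relative of hnRNP R, which also binds SMN and is found in dendritic mRNA granules. The deposited table gives it a wider locus, from 88376750, that also spans Snx14. Its total RNA was at 53.14 and 57.3 FPKM in early controls, 62.47 and 52.17 in early SMA, 44.54, 45.05 and 47.18 in late controls and 41.43, 51.34 and 46.82 FPKM in late SMA mice. In polysomal RNA the same groups were at 66.99 and 70.32, 71.59 and 67.24, 50.45, 58.65 and 57.42, and 52.07, 53.41 and 54.45 FPKM. Every late polysomal library lay below every early one, in both genotypes. In controls polysomal Syncrip fell by 0.31 on the log2 scale from P5 to P7 (95% interval -0.47 to -0.14, limma adjusted p = 0.0132), and total Syncrip gave -0.28 (adjusted p = 0.102). The SMA effects lay between -0.06 and 0.05. After removal of the trend with transcript length described below they were -0.19 in early total RNA (unadjusted p = 0.0483, a reversed direction and past the threshold) and -0.21 in early polysomal RNA (unadjusted p = 0.0937).

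The relation of this pair of relatives shifted with age. The ratio of Hnrnpr to Syncrip, which does not depend on the scaling of a library, was 1.27 to 1.37 in the 4 early total libraries and 1.81 to 2.09 in the 6 late ones, with no overlap. For polysomal RNA the ratio was 1.23 to 1.58 early and 1.68 to 2.09 late, again with no overlap. Control and SMA libraries had similar ratios within a stage, for example 1.91 and 1.98 on average in late total RNA. The ratio was singled out after its values were seen and carries no test. It does depend on any difference in length bias between stages, since the longest coding transcript annotated for Hnrnpr has 21452 nucleotides and that of Syncrip 9450. After removal of the trend of each library with transcript length, the P7 against P5 change was 0.10 for Hnrnpr and -0.37 for Syncrip in total RNA, and -0.29 and -0.53 in polysomal RNA.

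**Figure D2:**
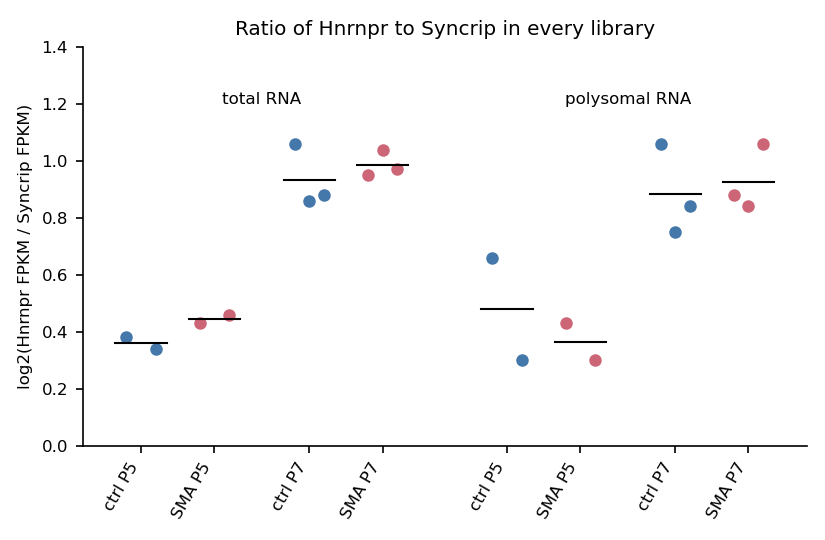
Log2 ratio of Hnrnpr FPKM to Syncrip FPKM (vertical axis) in each library (points, blue for control and red for SMA) with the group mean (line), by stage and fraction. The late libraries lie between 0.75 and 1.06 and the early ones between 0.30 and 0.66, in both genotypes.

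Fmr1 (ENSMUSG00000000838.15, chromosome X, 68678541 to 68717963, plus strand) encodes FMRP, the protein missing in fragile X syndrome, which sits on polysomes and represses translation of synaptic mRNAs. In total RNA it was at 25.34 and 26.76 FPKM in early controls, 28.78 and 25.12 in early SMA, 26.04, 26.31 and 25 in late controls and 24.13, 26.44 and 24.65 FPKM in late SMA mice. Its polysomal values were 31.89 and 31.43, 32.38 and 28.71, 27.37, 32.79 and 30.84, and 26.03, 26.21 and 27.77 FPKM. It was the steadiest partner, at 24.13 to 32.79 FPKM over all libraries, and did not pass the threshold between stages. The late polysomal SMA values lay below those of 2 of the 3 controls and overlapped the third. This gave the smallest p of any partner between genotypes, a log2 change of -0.18 (SE 0.08, 95% interval -0.37 to 0.01, limma unadjusted p = 0.0601, adjusted p = 0.484). The value depended on late control replicate 1, without which the change was -0.25 with an unadjusted limma p of 0.00665. Fmr1 also passed the unadjusted threshold in 1 model over all libraries, which kept that replicate.

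Elavl4 (ENSMUSG00000028546.15, chromosome 4, 110203722 to 110351909, minus strand) encodes HuD, a neuronal protein that stabilises mRNAs with AU-rich elements and promotes neurite growth. Total RNA values were 39.65 and 38.46 FPKM in early controls, 36.6 and 36.56 in early SMA, 48.15, 49.7 and 46.29 in late controls and 46.82, 45.85 and 55.29 FPKM in late SMA mice. Polysomal values were 43.26 and 42.76, 41.08 and 37.46, 68.97, 51.09 and 54.04, and 59.73, 56.49 and 57.11 FPKM. All late libraries lay above all early libraries of the same fraction, whichever the genotype. In controls Elavl4 rose by 0.30 in total RNA (SE 0.08, 95% interval 0.11 to 0.49, limma adjusted p = 0.038) and by 0.42 in polysomal RNA (SE 0.12, 95% interval 0.14 to 0.70, adjusted p = 0.0295). The total RNA call did not hold without any 1 of the 5 control libraries or with a block on replicate number. The polysomal call was lost under 3 of the alternatives run, with a change of 0.29 to 0.50 when single replicates were left out. At P5 the SMA values lay just below both control values in each fraction, without overlap, at -0.09 (unadjusted p = 0.173) in total and -0.13 (unadjusted p = 0.164) in polysomal RNA.

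Khsrp encodes KSRP (ENSMUSG00000007670.9, chromosome 17, 57021051 to 57031522, minus strand), which speeds the decay of AU-rich mRNAs and so acts on many of the same elements as HuD in the other direction. Total RNA gave 14.7 and 14.22 FPKM in early controls, 18.7 and 15.43 in early SMA, 16.6, 16.41 and 17.9 in late controls and 15.37, 18.31 and 16.62 FPKM in late SMA mice. Polysomal RNA gave 12.75 and 12.62, 13.25 and 17.02, 18.96, 18.32 and 17.52, and 17.2, 19.39 and 18.45 FPKM. The 2 early control libraries of each fraction were the lowest of all. Polysomal Khsrp rose from P5 to P7 in controls by 0.52 (SE 0.11, 95% interval 0.28 to 0.77, limma adjusted p = 0.00882), the largest change of any tested partner in the comparisons made. In early SMA mice Khsrp lay above both controls, at 0.23 in total RNA (95% interval -0.16 to 0.62) and 0.24 in polysomal RNA (95% interval -0.23 to 0.72). Neither passed the threshold (unadjusted p = 0.162 and 0.215).

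Tardbp (ENSMUSG00000041459.13, chromosome 4, 148612382 to 148627019, minus strand) encodes TDP-43, a splicing and transport factor that aggregates in amyotrophic lateral sclerosis and meets SMN in nuclear bodies. Its locus in the table, from 148602554, also spans Masp2. It had 89 and 113.2 FPKM in early control total RNA, 107.18 and 87.73 in early SMA, 126.97, 121.82 and 134.6 in late controls and 94.64, 133.64 and 122.22 FPKM in late SMA mice. In polysomal RNA it had 116.55 and 115.56, 106.12 and 84.69, 137.48, 135.6 and 160.88, and 122.38, 148.3 and 132.82 FPKM. The early SMA polysomal libraries both lay below the controls, a log2 change of -0.29 (SE 0.14, 95% interval -0.71 to 0.12, limma unadjusted p = 0.116). Without early SMA replicate 1 it was -0.45, past the unadjusted threshold, but this sets 1 SMA library against 2 controls, with the lone library assumed to vary as the controls do. With all libraries and the length trend removed it was -0.46 (unadjusted p = 0.0416), also past the threshold. The change from P5 to P7 in controls was 0.35 in total RNA (adjusted p = 0.178) and 0.31 in polysomal RNA (adjusted p = 0.0856), neither past the threshold.

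Coil (ENSMUSG00000033983.11, chromosome 11, 88970252 to 88991613, plus strand) encodes coilin, the scaffold of the Cajal body, to which SMN binds directly. Total RNA was at 9.18 and 9.8 FPKM in early controls, 7.84 and 10.03 in early SMA, 7.81, 7.75 and 6.9 in late controls and 6.93, 8.01 and 8.05 FPKM in late SMA mice. Polysomal RNA was at 13.69 and 9.75, 11.39 and 10.27, 7.73, 9.19 and 9, and 8.25, 8.31 and 8.56 FPKM. The late polysomal libraries all lay below the early ones, and control total RNA did not overlap between stages either. The P7 against P5 change in controls was -0.34 (limma adjusted p = 0.0869, unadjusted p = 0.0265) in total RNA. It was -0.42 (adjusted p = 0.0547, unadjusted p = 0.0224) in polysomal RNA, and both adjusted values were short of the threshold. With single replicates left out the change ranged from -0.39 to -0.28 in total and from -0.66 to -0.18 in polysomal RNA. A second row at the same locus (ENSMUSG00000103316.1) lay at or below 1.76 FPKM and was not tested.

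Igf2bp1 (ENSMUSG00000013415.7, chromosome 11, 95957163 to 96005940, minus strand) encodes IMP1 or ZBP1, the zipcode-binding protein that localises β-actin mRNA and is mostly expressed before birth. It was at 0.41 and 0.52 FPKM in early control total RNA, 0.62 and 0.87 in early SMA, 0.12, 0.13 and 0.19 in late controls and 0.11, 0.43 and 0.11 FPKM in late SMA mice. Polysomal values were 0.34 and 0.33, 0.41 and 0.61, 0.06, 0.08 and 0.21, and 0.06, 0.12 and 0.28 FPKM. All control values at P7 lay below all control values at P5. In a fit without the filter on low values (34288 genes) the change was -1.20 (limma unadjusted p = 0.027, adjusted p = 0.165) in total and -1.07 (unadjusted p = 0.0429, adjusted p = 0.171) in polysomal RNA. At P5 both SMA libraries lay above both controls in each fraction, at 0.57 (unadjusted p = 0.147) and 0.47 (unadjusted p = 0.192). At such low levels the added 0.1 FPKM makes these changes smaller than the ratio of FPKM.

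The genotype comparison asked whether the mRNAs of SMN partners differ in level in SMA brain. At an unadjusted limma p under 0.05, 0 of the 7 tested partners differed in early total RNA, where 8.25% of all tested genes did so. The count was also 0 of 7 in early polysomal RNA (12.5% of all genes), late total RNA (9.54%) and late polysomal RNA (10.7%), and none had an adjusted p below 0.441. The median log2 change of the 7 was 0.05, -0.09, 0.02 and -0.04 in these 4 comparisons, beside medians of 0.01, -0.01, 0 and 0 over all tested genes. With so few partners, a count of 0 is near what these shares give. The intervals do bound the changes at P7, where all 14 lay within -0.49 and 0.37 on the log2 scale, whereas at P5 they reached from -0.74 to 0.72. The early comparison also depended on transcript length. Across genes, log2 change and length had a Spearman rho of 0.414 in early total RNA and 0.331 in early polysomal RNA, against -0.0356 and -0.0626 at P7. With that trend removed, Hnrnpr (-0.26, unadjusted p = 0.0254) and Syncrip (-0.19, unadjusted p = 0.0483) turned to lower in early SMA total RNA, and Tardbp (-0.46, unadjusted p = 0.0416) passed the threshold in early polysomal RNA. Under that correction 7.54% of all genes passed in early total and 9.71% in early polysomal RNA.

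**Figure D3:**
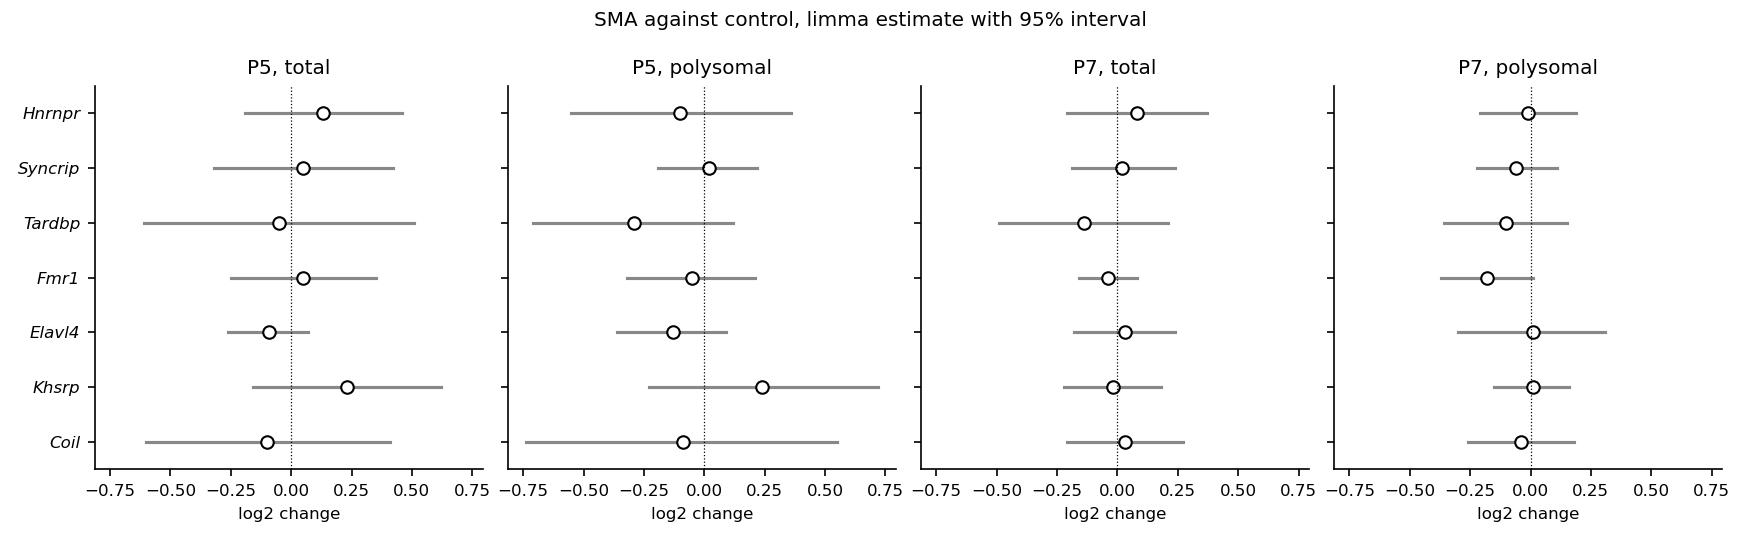
Log2 change of SMA against control (horizontal axis) with its 95% interval for the 7 tested partners in the 4 genotype comparisons; open points did not pass the unadjusted threshold of 0.05 and filled points would have. All points are open, and in both fractions the intervals are narrower at P7 than at P5 for each partner but Elavl4.

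Some of these counts moved when a library was left out. Early SMA total replicate 1 was above replicate 2 for Hnrnpr, Syncrip, Tardbp, Fmr1 and Khsrp and below it for Coil, and without replicate 2 Hnrnpr (0.25) and Khsrp (0.37) passed the unadjusted threshold, as did 28.3% of all genes, in a fit where 1 SMA library stands against 2 controls and the spread comes from the controls and limma's prior alone. Without late control replicate 1, Syncrip (-0.12), Fmr1 (-0.25) and Elavl4 (0.14) passed it in late polysomal RNA, as did 13.5% of all genes. The SMA brains differed from controls in their endothelial markers, of which 5 of 5 (Cldn5, Pecam1, Flt1, Cdh5 and Kdr) were lower at the same threshold in early total, late total and late polysomal RNA and 3 of 5 in early polysomal RNA, with medians of -0.63 to -0.68. Their summed level was 64.6 to 72.4 FPKM in early control and 31.6 to 32.7 FPKM in early SMA total RNA, with Cldn5 the most abundant. Among 6 neuronal markers only Map2 passed in total RNA, higher in SMA by 0.37 early and 0.11 late, only Tubb3, which is listed at 0 in both early control polysomal libraries, passed in early polysomal RNA, and 0 passed in late polysomal RNA. The part of cell composition in the partners' values was not tested.

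No tested partner passed the test of a different SMA effect between the stages. The difference between the late and the early effect, which is at the same time the difference in ageing between genotypes, was past an unadjusted p of 0.05 for 0 of 7 partners in total RNA (10.1% of all genes) and 0 of 7 in polysomal RNA (13.7%). Khsrp had differences of -0.25 in total RNA (SE 0.14, 95% interval -0.59 to 0.09, limma unadjusted p = 0.122) and -0.24 in polysomal RNA (SE 0.15, unadjusted p = 0.154). Without early SMA replicate 2 the former was -0.39 (unadjusted p = 0.024) and the latter -0.06, and without early SMA replicate 1 they were -0.11 and -0.42 (unadjusted p = 0.00672), with 1 early SMA library left in each. For Elavl4 the polysomal difference was 0.14, ranged from 0.05 to 0.27 with single replicates left out, and passed the unadjusted threshold under 1 alternative. The stage difference also fell with transcript length across genes (Spearman rho -0.396 in total and -0.361 in polysomal RNA). With that trend removed, Hnrnpr went from -0.05 to 0.32 and Syncrip from -0.02 to 0.22 in total RNA, and Hnrnpr from 0.09 to 0.56 (unadjusted p = 0.0529) in polysomal RNA, none past the threshold. The control mean of Khsrp in total RNA went from 14.5 to 17 FPKM between P5 and P7, whereas its mean in SMA went from 17.1 to 16.8 FPKM. Translation efficiency (TE), the log2 difference between polysomal and total RNA, changed in SMA for 0 of 7 partners at P5 (2.32% of all genes) and 0 of 7 at P7 (2.07%). The TE changes lay between -0.24 (Tardbp) and 0.01 at P5 and between -0.14 (Fmr1) and 0.04 at P7. The Fmr1 value had a 95% interval of -0.35 to 0.07 (limma unadjusted p = 0.158), and without late control replicate 1 it was -0.22 and passed the unadjusted threshold.

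Each FPKM is scaled to its own library, so that polysomal against total RNA compares shares of libraries and not amounts of mRNA. In control brains most partner mRNAs had a higher FPKM in polysomal than in total RNA. At P7 this held for all 7 tested (58.1% of all genes), by 0.11 to 0.28, with a median of 0.23 beside 0.05 for all tested genes. At an adjusted p under 0.05, 2 of the 7 passed, Syncrip (0.28, SE 0.08, limma adjusted p = 0.0459) and Fmr1 (0.23, SE 0.06, adjusted p = 0.0462), where 13.6% of all genes did. Both were close to the threshold. With the replicate number as a block only Syncrip remained past it, and with all libraries shifted to equal medians neither was. Leaving out single replicates gave 0 to 1 of the 7 past it, so that the 2 calls never held together. At P5, 6 of the 7 had positive values (52.3% of all genes), up to 0.43 for Hnrnpr, and Khsrp had -0.19. None passed the adjusted threshold (2.82% of all genes did), while Hnrnpr, Syncrip (0.31) and Fmr1 (0.28) had an unadjusted limma p under 0.05, as did 27.7% of all genes. At P7 that held for 4 of the 7 and for 28.7% of all genes. The related lists were counted beside them at P7. Of 25 hnRNP family genes 6 were higher in polysomal RNA and 0 lower, among them Hnrnpa2b1 (0.62), Hnrnpab (0.41), Hnrnpa3 (0.38) and Hnrnpk (0.36). Of 30 granule and transport genes 5 were higher and 2 lower, and the 2 were Ybx1 (-1.94) and Pabpc1 (-1.58), both of which encode abundant proteins bound to mRNA in the cytoplasm. Among 15 Cajal body genes 4 were higher, led by Nop58 (0.39) and Nolc1 (0.32). None of the 9 close relatives and none of the 18 target mRNAs described below passed at P7, and 12.5% of the motor neuron disease list did.

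The age comparison asked how the partners' levels move as the control brain grows. From P5 to P7 in controls, 1 of 7 passed the adjusted threshold in total RNA (Elavl4, higher), where 23.1% of all genes did, and 3 of 7 passed in polysomal RNA (Khsrp and Elavl4 higher, Syncrip lower), where 39.7% of all genes did. The partners' shares are near these backgrounds. At an unadjusted p under 0.05 the counts were 4 (37.8% of all genes) and 5 (49.5%). Values of control groups did not overlap between stages for 6 of the 7 in total RNA, where this held for 58.5% of all genes, and for 5 of the 7 in polysomal RNA, where it held for 59.8%. The total RNA call of Elavl4 was lost without any 1 of the 5 control libraries and in the fit blocked on replicate number (0.27, unadjusted p = 0.0291), and with early control replicate 1 left out the polysomal count was 1. The polysomal calls of Syncrip and Khsrp were each lost under 1 alternative and that of Elavl4 under 3. Stage and any difference in handling between the stages cannot be told apart. Neuronal markers rose over the same interval, with 4 of 6 higher in total RNA (Rbfox3, Snap25, Syt1 and Map2) and the same 4 and Tubb3, listed at 0 in the early control polysomal libraries, in polysomal RNA (median of the 6: 0.42 and 0.68). Of 6 progenitor and cell cycle markers, Nes fell in both fractions and Sox2 in polysomal RNA (median -0.43 and -0.56). Their part in the partners' changes was not tested.

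**Figure D4:**
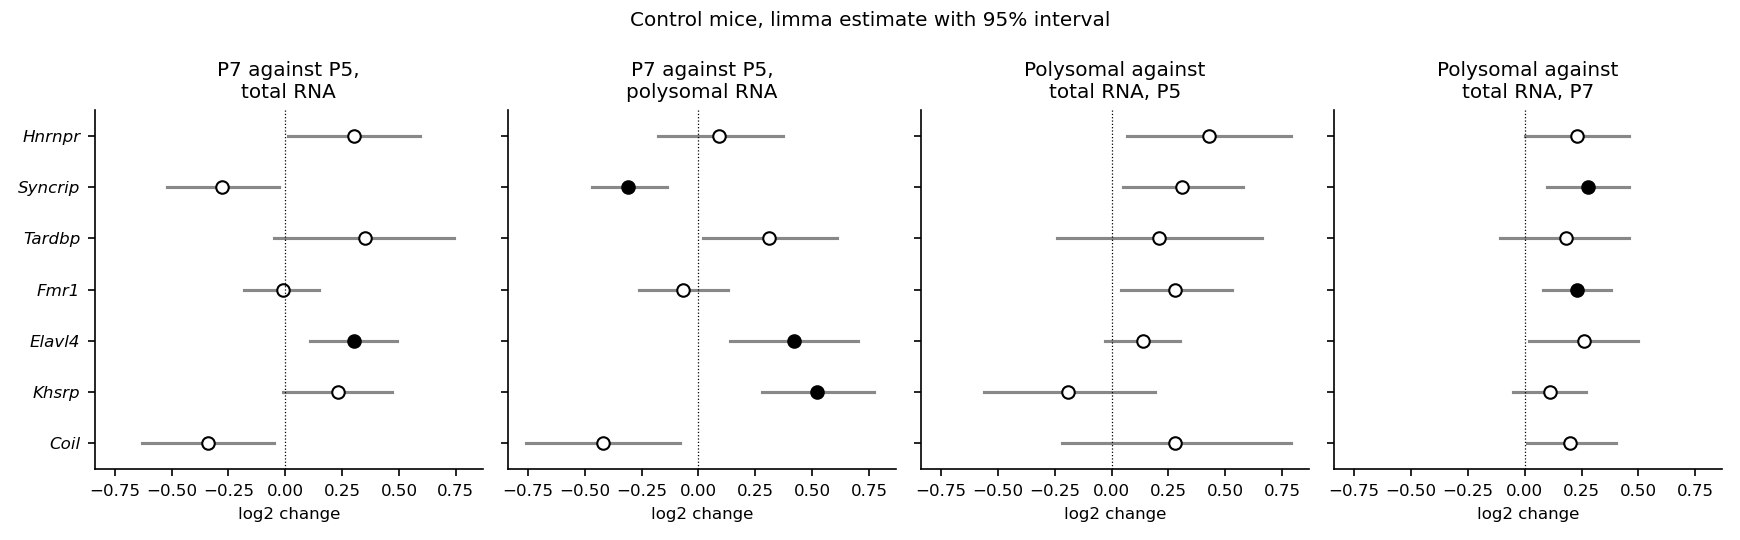
Log2 change (horizontal axis) with its 95% interval in control mice for the 7 tested partners, between P7 and P5 in each fraction (left) and between polysomal and total RNA at each stage (right); filled points passed an adjusted p of 0.05. Khsrp and Elavl4 are filled to the right of 0 and Syncrip to the left in polysomal RNA between stages.

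Close relatives of the partners were set beside them. Elavl3, a neuronal Hu protein gene like Elavl4, rose from P5 to P7 in controls by 0.37 in total and 0.67 in polysomal RNA (limma adjusted p = 0.0176 and 0.00256), while the ubiquitous Elavl1 gave 0.15 and 0.24 and Elavl2 gave -0.18 and 0.09, without passing. Fxr1, a relative of Fmr1, fell by 0.42 and 0.54 (adjusted p = 0.0041 and 0.00166), and Fxr2 gave -0.40 in total RNA (adjusted p = 0.0692) and fell by 0.52 in polysomal RNA (adjusted p = 0.00324), whereas Fmr1 itself gave -0.01 and -0.07. Igf2bp3 gave -0.26 in total RNA (adjusted p = 0.175) and fell by 0.33 in polysomal RNA (adjusted p = 0.0389), and Igf2bp2 gave -0.37 and -0.17 without passing. Fubp3, of the KSRP family, gave 0.66 in total RNA (adjusted p = 0.0974) and rose by 0.55 in polysomal RNA (adjusted p = 0.0131), and Fubp1 gave -0.10 and -0.34 without passing. Between genotypes these 9 relatives gave 0 called in 3 of the 4 comparisons and 1 in late total RNA, Igf2bp2, which was higher in SMA (0.37, unadjusted p = 0.0135) at 1.64 against 1.25 FPKM.

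Other genes of the same pathways were counted at the same unadjusted threshold between genotypes, to be read beside the 8.25% (early total), 12.5% (early polysomal), 9.54% (late total) and 10.7% (late polysomal) of all tested genes past it. Of the 25 hnRNP genes, 0 were higher and 4 lower in early SMA total RNA (Hnrnph3 -0.33, Hnrnpab -0.24, Hnrnpc -0.24 and Raly -0.22), 0 either way in early polysomal RNA, 1 higher and 2 lower in late total RNA and 1 higher and 4 lower in late polysomal RNA, which makes 16%, 0%, 12% and 20% of the list. With the length trend removed, 1 was lower in early total RNA. Hnrnpc, which binds uridine-rich stretches of nascent RNA, was lower at P7 in both fractions (-0.27 and -0.34), and Pcbp2 was higher in both (0.23 and 0.30). Rbmx (-0.23) was lower in late total RNA and Hnrnpu (-0.25) and Hnrnpa2b1 (-0.20) in late polysomal RNA. The 30 granule and transport genes gave 3 higher and 0 lower in each early fraction, Myo5a (0.37), Kif3a (0.26) and Kif5a (0.21), all motors, in total RNA and Cpeb1 (0.80), Cyfip2 (0.42) and Cpeb4 (0.31) in polysomal RNA. That is 10% of the list in each fraction, near the share of all genes. Their median was 0.21 and 0.17 early, beside 0.01 and -0.01 over all genes, but their median transcript length was 5930 nucleotides, beside 2940 over all tested genes, and the early effect rose with length. With the length trend removed the medians were 0.07 and 0.05, beside 0 and -0.02, with 1 and 2 genes called. At P7 there were 2 higher and 2 lower in each fraction (13.3%). In late total RNA Pabpc1 (0.32), the poly(A)-binding protein gene, and Pum2 (0.21), a translational repressor gene, were higher, and in late polysomal RNA Stau1 (0.17), of the Staufen transport proteins, and Pabpc1 (0.30, with overlapping groups) were higher. Fam98a (-0.25 and -0.24) and the kinesin gene Kif5b (-0.08 and -0.18) were lower in both.

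Of 16 tested RNA-binding and other genes linked to motor neuron disease, a list that stands nearest to Tardbp, 1 was higher in early total RNA (Vcp, 0.19), 0 differed in early polysomal RNA and 1 was lower in late total RNA (Ewsr1, -0.27). In late polysomal RNA 4 were lower (Taf15 -0.37, Ewsr1 -0.26, Tbk1 -0.21 and Hnrnpa2b1 -0.20). Ewsr1, which encodes an RNA-binding protein of the nucleus, was thus lower in both fractions at P7. The shares of the list called were 6.25%, 0%, 12.5% and 31.2%, in the order early total, early polysomal, late total and late polysomal RNA. Among 15 Cajal body genes, which stand nearest to Coil, the counts were 0, then 1 higher and 2 lower (Nop10 -0.58, Ice1 0.40, Nhp2 -0.25), then 1 lower (Wrap53 -0.35), then 1 higher and 1 lower (Wrap53 -0.33) in early total, early polysomal, late total and late polysomal RNA, which makes 0%, 20%, 6.67% and 13.3%. Wrap53 encodes the protein that brings small Cajal body RNAs and telomerase RNA to the body.

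The 18 mRNAs known to be bound or carried by the partners gave 3 higher and 0 lower in early total RNA, 2 higher and 1 lower in early polysomal RNA, 3 higher and 0 lower in late total RNA and 1 higher and 1 lower in late polysomal RNA, which makes 16.7% in each of the first 3 and 11.1% in the last. With the length trend removed, 1 was higher in early total RNA. Cdkn1a, a cell cycle inhibitor mRNA bound by HuD and KSRP, was higher in SMA in all 4, by 0.52, 1.00, 0.62 and 0.70 (unadjusted p = 0.0271, 0.0277, 0.0019 and 0.000371). It was at 14.4 ± 2.04 FPKM in late control and 22.1 ± 0.701 FPKM in late SMA total RNA (SD, n = 3 each). Map1b, the classic FMRP target, was higher in early total RNA (0.42, unadjusted p = 0.00982), and is listed at 0 in both early control polysomal libraries, which makes its polysomal call there one of the 2 higher. Mapt was higher in early total RNA (0.27), Marcks (0.31) and Grn (0.27) were higher in late total RNA, and Nrn1 (-0.43) in early and Ppfibp1 (-0.27) in late polysomal RNA were lower. The adjusted limma p exceeded 0.05 for every gene named here from these lists between genotypes except Map1b in early polysomal RNA.

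With age the target list was called in 1 direction and the other lists in both, where 23.1% of all tested genes passed in control total RNA and 39.7% in polysomal RNA. The target mRNAs gave 7 higher and 0 lower in control total RNA and 6 higher and 0 lower in polysomal RNA at an adjusted p under 0.05 (38.9% and 33.3% of the list, the latter below the share of all genes), led by Stmn2 (1.04 and 1.13), Camk2a (0.94 and 1.98) and Dlg4 (0.80 and 1.47), all mRNAs of growing or synaptic neurites. Map1b was at 0.86 in total RNA. It is listed at 0 in both early control polysomal libraries, which makes its polysomal call one of the 6 higher. The neuronal markers given above rose over the same interval, in 4 of 6 and 5 of 6 cases, and their part in these values was not tested. Of the granule and transport genes 8 were higher and 3 lower in total RNA and 11 higher and 6 lower in polysomal RNA (36.7% and 56.7%), with Pura (1.15 and 1.13), a protein of dendritic RNA granules, and Cyfip2 (0.61 and 0.89), a partner of FMRP, among the higher. The hnRNP genes gave 2 higher and 6 lower in total RNA and 7 higher and 7 lower in polysomal RNA (32% and 56%), with Hnrnpab lower in both (-0.78 and -0.73). Of the 16 motor neuron disease genes 2 were higher and 2 lower in total RNA and 5 higher and 6 lower in polysomal RNA (25% and 68.8%), with Atxn2 (1.30 and 1.81) and Ubqln2 (0.69 and 0.95) higher in both. Cajal body genes gave 2 higher and 4 lower and then 3 higher and 4 lower (40% and 46.7%), with Ell2 (0.80 and 1.05) and Smn1 (0.66 and 0.37) higher and Sart3 (-0.90 and -0.40) lower in both fractions.

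The partners did not follow a common profile over the 20 libraries. Pearson's r of log2 level was 0.828 for Syncrip and Fmr1, 0.783 for Syncrip and Coil, 0.727 for Elavl4 and Tardbp and 0.717 for Hnrnpr and Tardbp, but -0.858 for Elavl4 and Igf2bp1 and -0.656 for Khsrp and Coil. These points share stage, fraction and library, so the values are descriptions without a test. Among the 10768 other genes compared, with a mean of at least 5 FPKM, the profiles most like each partner were those of Zmym3 (r = 0.921) and Hsp90aa1 (0.901) for Hnrnpr, Kpnb1 (0.951) and Bclaf1 (0.937) for Syncrip, and Dnajc10 (0.921) and Dhx36 (0.91) for Fmr1. Elavl4 was most like Sema6b (0.942) and Efnb3 (0.94), Khsrp most like Cep120 (0.943) and Myo16 (0.943), Coil most like Topors (0.943) and Thumpd1 (0.928), and Tardbp least closely matched, with Slc7a11 (0.863) and Hnrnpl (0.853).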

How the data were processed

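The authors prepared stranded total RNA libraries, aligned the reads with TopHat 2.0.14 to GRCm38.p4 with the Gencode M6 annotation, and deposited FPKM per gene and library, computed with Cufflinks 2.2.1 and rounded so that reads could not be recovered. Depth per gene is therefore unknown. All 20 columns were matched to libraries by their labels. From the deposited values, log2(FPKM + 0.1) was fitted with limma 3.58.1 in R 4.3.3 (lmFit and eBayes with a trend) over the 15247 genes averaging 1 FPKM or more across all libraries. Genotype comparisons used the libraries of 1 stage and fraction. TE, age and stage differences used all libraries of the stage or fraction. The threshold was an unadjusted p of 0.05, as in the study's methods, for effects of SMA and a Benjamini-Hochberg adjusted p of 0.05 elsewhere. The fits were tested on simulated data. CuffDiff and Xtail, used in the study, need reads.

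The partner genes and lists were chosen with earlier results of these data known. Named from each list were up to 4 called genes per comparison whose groups do not overlap, with the largest changes first, all 9 relatives, and the 2 genes most like each partner. Some results of the motor neuron disease list are not reported here. Gene coordinates and lengths are those of Gencode M21 (GRCm38). The length of a gene is that of its longest coding transcript, or of its longest transcript where none is coding. Total and polysomal libraries share replicate numbers, but no label says that they share a brain. Deviations from the group mean correlated at -0.0391 to 0.109 within a number over all tested genes and at 0.102 to 0.559 over the 9722 coding genes with at least 5 FPKM, and the block on the number was an alternative. Others were pseudocounts of 1 and 0.01 FPKM, filters, scaling to equal medians, a fit without a trend, 1 model over all libraries, a lowess correction for transcript length (span 0.3), the other threshold and leaving out each replicate.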

Additional observations from a re-analysis of the deposited data

Results flagged for a closer look

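None of the 7 tested partners was picked out for a closer look, but among the genes of the lists and the markers the effect of SMA differed between P7 and P5 in 28 cases, at an unadjusted limma p under 0.05 for the difference itself. Each value is the late minus the early log2 change, and genes listed at 0 in a whole group of the fraction are left out. In total RNA it was 1.28 for Ttr, 0.68 for Aif1, 0.61 for Folr1, 0.53 for Nrn1, 0.38 for Marcks and 0.26 for Raly. In the same fraction it was -0.62 for Camk2a, -0.47 for Kif3a, -0.42 for Map1b, -0.35 for Ice1 and -0.27 for Map2. In polysomal RNA it was 0.90 for Ttr, 0.72 for Folr1, 0.59 for Hnrnpf, 0.50 for Nop10, 0.43 for Raly and 0.35 for Olig2. Negative polysomal values were -0.98 for Taf15, -0.51 for Ice1, -0.49 for Hnrnpu, -0.46 for Fam98a, -0.39 for Ppfibp1, -0.33 for Cyfip2, -0.33 for Kif3a, -0.31 for Ewsr1, -0.28 for Map2, -0.26 for Cpeb4 and -0.21 for Kif5b. These are 7.05% of the 156 list genes and markers examined in total RNA and 11.1% of the 153 in polysomal RNA, beside 10.1% and 13.7% of all tested genes. Over all genes the stage difference fell with transcript length (Spearman rho -0.396 and -0.361). With that trend removed, 6 of the 11 in total RNA stayed past the threshold in the same direction (Aif1, Camk2a, Folr1, Kif3a, Marcks and Ttr, where 6.45% of all genes passed) and 9 of the 17 in polysomal RNA (Ewsr1, Fam98a, Folr1, Ice1, Kif3a, Nop10, Olig2, Taf15 and Ttr, where 8.67% did). The other 5 and 8 did not pass, and none turned in sign. The median of the 30 granule and transport genes went from -0.17 to 0.01 in total and from -0.15 to -0.03 in polysomal RNA.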

How the results depend on the processing

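The number of the 7 tested partners past the threshold moved under these settings, given with the share of all tested genes called under the same setting. With the correction for transcript length it was 2 in early total RNA, where Hnrnpr went from 0.13 to -0.26 and Syncrip from 0.05 to -0.19 (7.54% of all genes), 1 in early polysomal RNA (9.71%), 2 between ages in total RNA (25.6%) and 0 for polysomal against total RNA at P7 (12.3%). With 1 model over all libraries it was 1 in late polysomal RNA (9.98%), 3 for polysomal against total RNA at P5 (23.5%) and 0 at P7 (8.7%). Without a filter on low values it was 0 for polysomal against total RNA at P7 (5.3%) and 0 between ages in total RNA (7.64%), and with equal medians (12.1%) or without a trend (13.1%) it was 0 for polysomal against total RNA at P7. With the other threshold, the unadjusted p, the counts were 3 and 4 for polysomal against total RNA at P5 and P7 (27.7% and 28.7% of all genes) and 4 and 5 between ages in total and polysomal RNA (37.8% and 49.5%). With the replicate block the count was 1 for polysomal against total RNA at P7 (20%) and 0 between ages in total RNA (16.7%), where Elavl4 was lost, and it changed no other count.

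Leaving out single replicates gave 0 to 2 called in early total RNA (2.63% to 28.3% of all genes), 0 to 1 in early polysomal RNA (5.19% to 19.8%), 0 to 3 in late polysomal RNA (7.25% to 13.5%), 0 to 1 for the change of TE at P7 (1.81% to 4.74%), 0 to 1 for polysomal against total RNA at P7 (5.73% to 12.1%), 0 to 2 between ages in total RNA (7.29% to 27.2%) and 1 to 3 in polysomal RNA (18.3% to 38.6%), and 0 to 1 for the stage difference in total (5.22% to 27.7%) and polysomal RNA (7.87% to 24.4%). Late total RNA and the change of TE at P5 stayed at 0 under every alternative run. The causes were not tested. Both the 2 libraries per genotype at P5 and the absence of counts limit these comparisons.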

Other observations

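Igf2bp1 was, among 10769 genes compared, most like Gm24303 (r = 0.897) and Gm24368 (r = 0.878), both annotated as miRNA genes, whose FPKM are uncertain at such short lengths. The choroid plexus markers Ttr, which encodes transthyretin, and Folr1, a folate receptor, were both higher in SMA at P7, by 0.88 and 0.69 in total RNA and by 0.91 and 0.54 in polysomal RNA, at an unadjusted limma p under 0.05. At P5 neither passed, with a median of -0.16 in total and -0.08 in polysomal RNA. The early SMA total libraries were unlike each other. Their summed choroid plexus markers were at 407 and 793 FPKM, beside 765 and 720 FPKM in early control total RNA. The total RNA stage differences of Ttr and Folr1 given above rest on these libraries. Between P5 and P7 in controls both fell, Ttr by 0.93 in each fraction. Of 5 microglial markers, Csf1r, Cx3cr1 and P2ry12 rose with age in controls in both fractions, P2ry12 by 1.11 and 1.04.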
